A study of Mus musculus with 2 samples.

Results

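The adrenomedullin and calcitonin gene-related peptide axis was examined through 6 genes chosen by name: the ligand genes Adm and Calca, the receptor gene Calcrl and the receptor modifier genes Ramp1, Ramp2 and Ramp3. Every probe set whose platform annotation names exactly 1 of these genes was taken, which gave 10 probe sets of 5 genes among the 18193 genes with such a probe set. Calca has none in the annotation used, so no value is given for it. The genes were picked with earlier results of these arrays known, so their values are a description.

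Epithelium came from the lungs of ICR mouse fetuses at embryonic day 11. In both groups it was first cultured in Matrigel, a basement membrane gel, for 4 days with FGF10, a growth factor that drives lung budding, and with CHIR99021, which blocks the kinase GSK3 and so keeps beta-catenin from being degraded. Fragments were then embedded again and kept for 2 days with FGF10, and CHIR99021 was either present or absent in that step. There was 1 array per condition, so the comparison is between continued inhibitor and its withdrawal, neither a spread between cultures nor a test can be given.

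Adrenomedullin and the calcitonin gene-related peptides signal through the receptor encoded by Calcrl, which needs a receptor activity modifying protein, or RAMP, to reach the cell surface. RAMPs are small proteins that cross the membrane a single time, and the RAMP in the complex sets the ligand: RAMP1 gives a receptor for calcitonin gene-related peptide, RAMP2 and RAMP3 give adrenomedullin receptors. The receptors act mainly through cyclic AMP, and in the lung they are best known from blood and lymphatic vessels, while Calca is known from pulmonary neuroendocrine cells.

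The promoters of Ramp1 and Calcrl are shown because these were the members with a higher signal on the array with CHIR99021. They are credited to RefSeq on GRCm38.p6, from a table of promoter windows that matched 5 of the 6 genes, and each covers 250 bases before to 50 after the annotated start, 5′ to 3′ on the gene's strand. The Ramp1 window is chr1:91179572-91179871 on the plus strand and the Calcrl window chr2:84425217-84425516 on the minus strand. Capitals mark every match, on either strand, to 3 short cores: CTTTGA or CTTTGT for TCF/LEF factors, the partners of beta-catenin, ACGTG or GCGTG for hypoxia-inducible factors, and TGACG for cyclic AMP response factors.
Ramp1: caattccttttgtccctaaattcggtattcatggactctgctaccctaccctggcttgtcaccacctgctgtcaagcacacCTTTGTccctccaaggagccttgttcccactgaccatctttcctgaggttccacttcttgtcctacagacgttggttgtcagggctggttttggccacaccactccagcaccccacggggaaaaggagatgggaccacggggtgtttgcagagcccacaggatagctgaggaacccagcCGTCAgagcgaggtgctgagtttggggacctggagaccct
Calcrl: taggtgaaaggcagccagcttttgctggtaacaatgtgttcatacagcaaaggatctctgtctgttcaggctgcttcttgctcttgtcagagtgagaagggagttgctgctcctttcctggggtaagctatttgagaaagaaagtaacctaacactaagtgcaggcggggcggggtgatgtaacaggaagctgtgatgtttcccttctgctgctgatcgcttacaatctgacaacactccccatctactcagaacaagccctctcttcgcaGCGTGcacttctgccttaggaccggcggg

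In the Ramp1 window the TCF/LEF core occurred as CTTTGT at bases 82 to 87, and the cyclic AMP core on the opposite strand at bases 261 to 265. The Calcrl window held neither of these and had GCGTG, of the hypoxia core, at bases 272 to 276. Such short cores are common: among 32851 promoter windows of the same length 31.2% held the TCF/LEF core, 43.8% the hypoxia core and 20.8% the cyclic AMP core. Of the other members, the Adm window had 2 matches to the hypoxia core and Ramp3 also 2, and the Calca window had 1 TCF/LEF and 1 cyclic AMP match. The matches describe letters only.

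The values are MAS5 signal intensities in arbitrary units, so a fold compares the arrays for the same probe set, and no order of abundance between genes is read from them. A background floor was set on each array at the 95th percentile of 80 probe sets of odorant and vomeronasal receptors, at 19.2 without and 12.7 with CHIR99021. Where a signal lay below the floor it was replaced by the floor, and the fold is then written as "at least". A probe set was counted as higher or lower from 2-fold on. The array with CHIR99021 was the dimmer of the pair: across 11346 genes that cleared both floors, the median log2 ratio (with over without) was -0.40. The beta-actin control had a 3′ signal 1.29 times its 5′ signal without and 3.18 times with the inhibitor, and the part of this difference in the results was not tested. As a check of the labels, 5 of 6 Wnt target genes were higher with CHIR99021, beside 1.91% of all genes measured. Their median log2 ratio was 2.16. This list too was chosen with earlier results of these data known, which limits the check. Axin2, Lgr5, Lef1, Sp5 and Nkd1 were the 5, and Notum was within 2-fold.

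Of the 10 probe sets, 2 were above the floor on both arrays, 3 on the array with CHIR99021 only and 5 on neither. Among the 5 measured, 2 were at least 2-fold higher with CHIR99021 and 0 lower. Over all 23972 single-gene probe sets measured, 1.51% were higher and 24.2% lower. By gene, with the brightest probe set standing for each, Ramp1 and Calcrl were higher, Adm was within 2-fold, the bound for Ramp2 did not reach 2-fold, and Ramp3 was not measured. Over all 12962 genes measured, 1.91% were higher and 18.5% lower. That split depends on the scaling: 247 genes were higher and 2401 lower on the authors' scale. The counts were 343 and 1829 with hybridization controls as the reference, 768 and 968 with median centring, 784 and 948 with loess, and 961 and 836 with quantile normalization. In the same order the median log2 ratio of all genes measured was -0.25, 0.05, 0.04 and 0.12, against -0.40 on the authors' scale. Since the members were picked with results known, nothing is read from their counts against these shares.

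**Figure D1:**
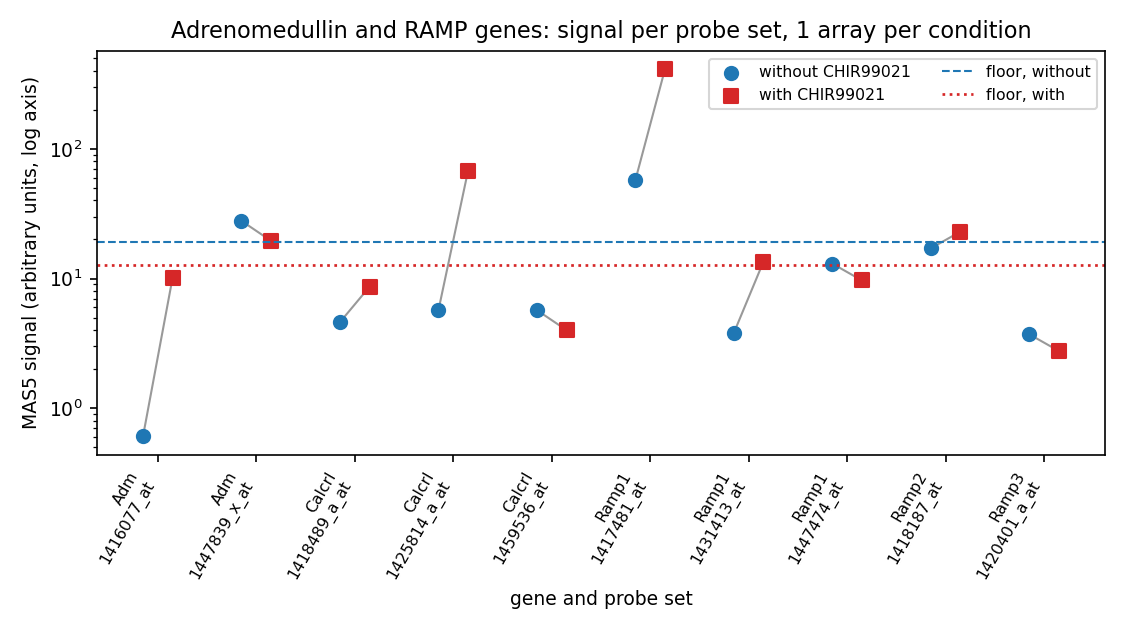
MAS5 signal (log axis, arbitrary units) of each of the 10 probe sets of Adm, Calcrl, Ramp1, Ramp2 and Ramp3, with circles for the array without and squares for the array with CHIR99021, 1 array each; dashed and dotted lines are the floors of 19.2 and 12.7. Only 1417481_at of Ramp1 and 1425814_a_at of Calcrl stand well above the floor with CHIR99021, at 411 and 67.5.

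The ligand gene Adm encodes adrenomedullin, a vasodilator peptide whose gene is known to be induced by low oxygen. Its probe set 1447839_x_at had a signal of 27.8 without and 19.5 with CHIR99021, above the floor on both arrays but close to it. The signal was therefore 1.42-fold lower with the inhibitor, a log2 ratio of -0.51 that lies near the -0.40 of the median gene, and 57.3% of the genes that cleared both floors had a higher ratio. After quantile normalization and loess the sign turned, to 0.19 and 0.09, where the median of all genes measured was 0.12 and 0.04. The suffix _x_at marks probes that may also bind other transcripts. The other probe set, 1416077_at, was below the floor on both arrays, at 0.608 and 10.1. The background probe sets that were dimmer than it numbered 8 of 80 without and 68 of 80 with CHIR99021. For 1447839_x_at this number was 79 of 80 on each array. Adm was thus above the floor but close to it by 1 probe set, and below the floor by the other.

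Calcrl, the receptor that all 3 RAMPs can accompany, was detected with CHIR99021 and not without it, by 1 of 3 probe sets. For 1425814_a_at the signal was 5.71 without CHIR99021, below the floor and above only 35 of the 80 background probe sets. With CHIR99021 it was 67.5, brighter than all 80 of them. The gene was therefore at least 3.52-fold higher with the inhibitor, a log2 ratio of at least 1.82. Of 833 genes above the floor on that array only, 5.76% were at least 2-fold higher, and 13 had a larger bound than Calcrl. The other probe sets did not reach the floor on either array. The signal of 1418489_a_at was 4.61 without and 8.64 with CHIR99021, and that of 1459536_at was 5.70 and 4.00. The bound for Calcrl moved with the floor, from 2.43-fold with the floor at the 99th percentile to 10.3-fold at the 50th.

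Ramp1, the modifier that gives Calcrl its preference for calcitonin gene-related peptide, had the largest fold among the members that is not a bound. By 1417481_at the signal was 57.6 without and 411 with CHIR99021, and both values exceeded all 80 background probe sets of their array. It was 7.12-fold higher with the inhibitor, a log2 ratio of 2.83, against -0.40 for the median gene. Among the 11346 genes above the floor on both arrays, 11 had a higher ratio. Across the 4 other scalings the log2 ratio lay between 2.98 and 3.41.

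The remaining Ramp1 probe sets were dim. The signal of 1431413_at was 3.82 without CHIR99021, below the floor, and 13.5 with it, just above the floor of that array but under the floor of the other, so no fold is given. The background probe sets dimmer than it numbered 23 of 80 without and 76 of 80 with the inhibitor. By 1447474_at the signals were 13.0 and 9.66, below the floor on both arrays. The difference for Ramp1 hence rests on 1417481_at. Its log2 ratio was 1.42 as the median over the gene's measured probe sets, where 1431413_at enters as 0. For comparison, of 128 genes that were at least 2-fold higher, above the floor on both arrays and had a further probe set, 43.8% had a further one also at least 2-fold higher, and in 18.0% all further ones were below the floor.

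**Figure D2:**
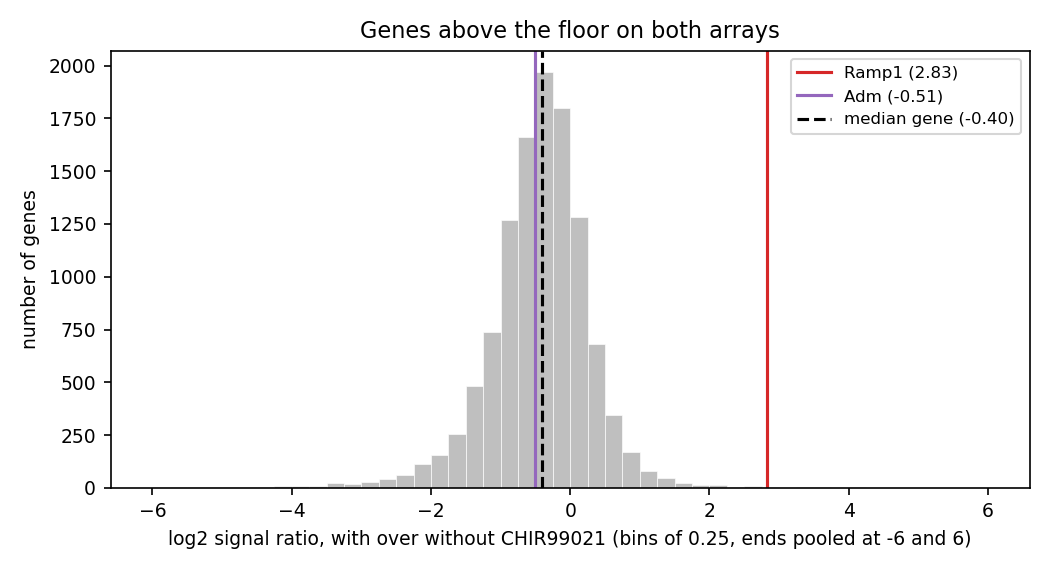
Number of genes by log2 signal ratio, with over without CHIR99021, for the 11346 genes above the floor on both arrays, in bins of 0.25, with vertical lines for Ramp1, Adm and the median gene. The line of Ramp1 at 2.83 lies in the upper tail, where 11 genes are higher, and that of Adm at -0.51 lies beside the median of -0.40.

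Ramp2, which makes Calcrl an adrenomedullin receptor and is needed for vessel development, was close to the floor. Its only single-gene probe set, 1418187_at, had a signal of 17.1 without CHIR99021, under the floor, and 23.0 with it. The bound, a log2 ratio of at least 0.26, did not reach the 2-fold threshold, and after quantile normalization and loess it was 0.95 and 0.85. Both signals lay high among the background probe sets, above 74 of 80 and 79 of 80. A further 2 probe sets name Ramp2 together with Vps25, a subunit of an endosomal sorting complex, and were not used for Ramp2. These had signals of 447 without and 251 with CHIR99021 and of 725 and 437, log2 ratios of -0.84 and -0.73, opposite in sign to that of 1418187_at. The probe set of Vps25 alone had 49.1 and 31.8, a log2 ratio of -0.63. How much Ramp2 transcript the shared probe sets read was not tested.

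Ramp3, the modifier of the other adrenomedullin receptor, was not detected. Its probe set 1420401_a_at had a signal of 3.71 without and 2.76 with CHIR99021, dimmer than most background probe sets (above 23 and 32 of the 80). A probe set below the floor does not show that the transcript was absent.

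**Figure D3:**
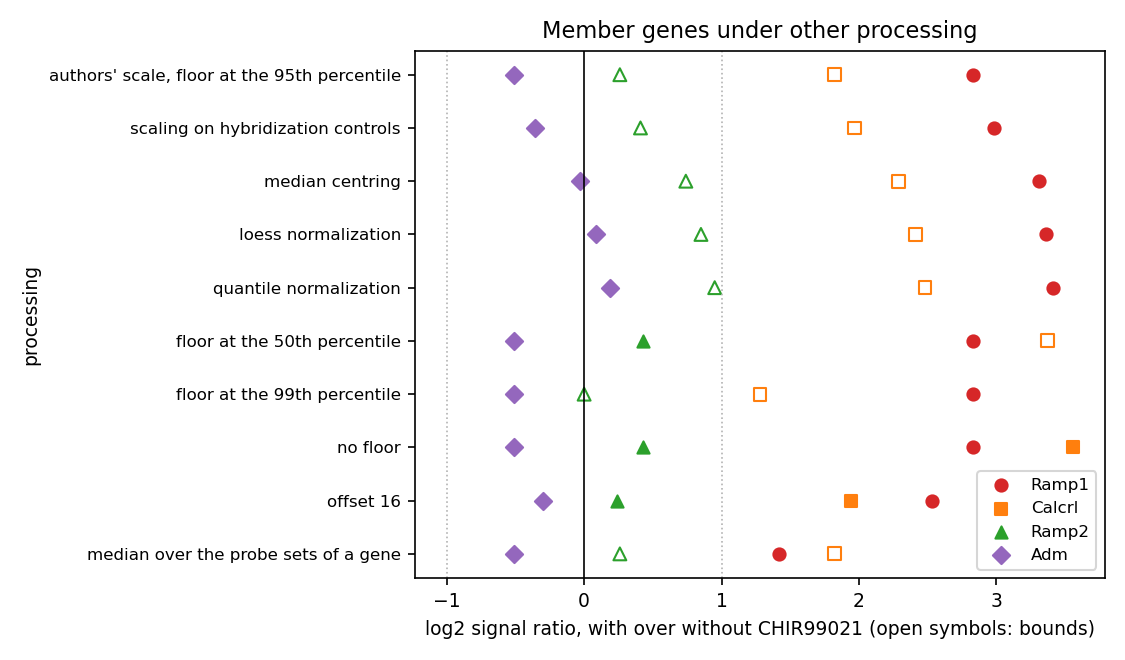
Log2 signal ratio of Ramp1, Calcrl, Ramp2 and Adm on the authors' scale and under 9 other ways of processing the same arrays, with filled symbols for ratios and open symbols for bounds; dotted lines mark 2-fold. Ramp1 and Calcrl stay above 2-fold throughout, between 1.42 and 3.41 and between 1.28 and 3.56. Adm crosses 0 with the scaling, as does the median of all genes measured, which is not drawn. The values for Ramp2 lie under 2-fold, but most are lower bounds and do not show that its fold stayed under 2.

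As a description of likeness, the genes whose pair of signals lay nearest to a member's were found over the 2 arrays among 10861 named genes above the floor on both. For Ramp1 these were Dnah7a, a dynein heavy chain of motile cilia, at 60.1 without and 377 with CHIR99021 (a distance of 0.139 on the log2 scale), and Tent5a, a poly-A polymerase, at 53.9 and 513 (0.335). For Adm they were Cd68, a macrophage lysosomal protein, at 28.1 and 19.4 (0.0216), and Rbks, ribokinase, at 27.8 and 19.2 (0.0259). With 2 arrays the likeness describes signal and ratio alone, and signals of different probe sets depend on the probes as well as on the transcript.

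The other ligands and receptors of the family were at background. Calcb, the second calcitonin gene-related peptide gene, Iapp, which encodes amylin, and Adm2, which encodes intermedin, were all below the floor on both arrays, with signals from 0.962 to 16.6 without CHIR99021 and from 3.60 to 8.76 with it. The calcitonin receptor gene Calcr had 13.0 and 9.14, and Ackr3, a scavenger receptor that also takes up adrenomedullin, 19.0 and 2.91, all below the floor. Gpr182, an atypical chemokine receptor once proposed as an adrenomedullin receptor, was below it on both arrays too. Of the 4 genes in that list 1 was measured, Crcp, an intracellular component of the receptor complex that is also a subunit of RNA polymerase III. It had 279 without and 189 with CHIR99021, a log2 ratio of -0.57, within 2-fold and near the median gene. With the floor, Calcrl and Ramp1 were therefore the only genes of the family ligands, receptors and modifiers examined that were at least 2-fold higher. Without it, 1 of the 3 ligand genes of this paragraph was higher and 1 lower. Of the 4 genes in the receptor list 0 were then higher and 2 lower. The shares of all genes without a floor were 6.67% higher and 25.3% lower.

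Genes that process or break down the peptides differed in both directions, with 1 of 8 measured members higher and 3 lower, beside 1.91% and 18.5% of all genes measured. Their median log2 ratio was -0.52 on the authors' scale and -0.37 when hybridization controls set the scale. Under the other scalings it lay between -0.08 and 0.01, and 1 member was higher and 2 lower. Of all genes measured, 5.93% to 7.41% were higher there and 6.45% to 7.47% lower. Pam, the enzyme that amidates the C-terminus of adrenomedullin and calcitonin gene-related peptide, was 5.23-fold lower with CHIR99021 (131 against 683). Mme, the membrane peptidase neprilysin, was 4.16-fold lower (21.0 against 87.2), and by its other measured probe set, below the floor with CHIR99021, the log2 ratio was -0.93 or lower. Ece1, the endothelin-converting enzyme, was 2.75-fold lower (122 against 336). Cpe, a carboxypeptidase of prohormone processing, was at 17.2 without CHIR99021, below the floor, and at 67.9 with it, at least 3.54-fold higher. Pcsk1 was below the floor, and Pcsk2 had no single-gene probe set here.

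Other receptors known to pair with RAMPs were dim or undetected. Of 10 genes 6 were measured, 0 higher and 3 lower, beside 1.91% and 18.5% of all genes measured, with a median log2 ratio of -0.72. After median centring, quantile normalization or loess 1 was lower, beside 6.45% to 7.47% of all genes measured, with medians from -0.25 to -0.03. Gper1, a membrane estrogen receptor, was at least 3.76-fold lower (47.9 without CHIR99021) by an _x_at probe set. Its other probe set had 21.5 and 3.72, the latter under the floor, which gives a log2 ratio of -0.75 or lower. Crhr1, the corticotropin-releasing hormone receptor, was 2.37-fold lower (18.0 against 42.5) and Gcgr, the glucagon receptor, at least 2.08-fold lower (26.5 without). All 3 were near the floor. Vipr1, Pth1r, Glp1r and Gipr were below it on both arrays.

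Most genes of cyclic AMP transduction did not reach 2-fold. Gnas, the stimulatory G protein subunit, had 6328 without and 5886 with CHIR99021, and Adcy6, an adenylyl cyclase, 939.8 and 961. Of 29 measured members 1 was higher and 4 lower, beside 1.91% and 18.5% of all genes measured, and 24 did not reach 2-fold. The balance depended on the scaling. After quantile normalization or loess 5 were higher and 2 lower, after median centring 3 and 3. When hybridization controls set the scale 2 were higher and 4 lower. Of all genes measured, 7.41%, 6.05%, 5.93% and 2.65% were higher with quantile normalization, loess, median centring and hybridization controls. The shares lower were 6.45%, 7.31%, 7.47% and 14.1%. The list's median log2 ratio was -0.12 on the authors' scale and from 0.02 to 0.40 under the 4 scalings. The median of all genes measured moved too, from -0.40 to -0.25 with hybridization controls. It was between 0.04 and 0.12 under the other scalings. Rapgef3, the cyclic AMP sensor EPAC, was 3.59-fold lower (24.6 against 88.3), Arrb1, a beta-arrestin that ends receptor signalling, 3.20-fold lower (37.0 against 118), Pde8a, a phosphodiesterase, 2.86-fold lower and Adcy1, an adenylyl cyclase, 2.35-fold lower. Prkar1b, a regulatory subunit of protein kinase A, was 3.37-fold higher (83.8 against 24.8), but of its 3 other measured probe sets 2 had log2 ratios of -0.08 and -0.05, and the third, an _x_at probe set below the floor without CHIR99021, had at least 1.13.

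Of 7 measured genes known to be induced by cyclic AMP, 1 was higher and 1 lower, beside 1.91% and 18.5% of all genes measured, with a median log2 ratio of -0.50. After median centring, quantile normalization or loess 3 were higher and 0 lower, with medians of -0.02, 0.14 and 0.05. Of all genes measured, 5.93% to 7.41% were higher there and 6.45% to 7.47% lower. Ppargc1a, a coactivator of mitochondrial genes, was 8.06-fold higher with CHIR99021 (287 against 35.6), and all 4 of its other measured probe sets were at least 2-fold higher too, with log2 ratios from 1.37 to 3.61. Sik1, a kinase in feedback of the pathway, was 2.56-fold lower (64.9 against 166). Nr4a1 and Dusp1, both immediate-early genes, had log2 ratios of -0.50 and -0.65, within 2-fold.

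Because Adm is a known hypoxia-induced gene, that response was listed as well. Of 18 measured members 0 were higher and 6 lower, beside 1.91% and 18.5% of all genes measured, with a median log2 ratio of -0.52 against -0.40 for all of them. After median centring, quantile normalization or loess 1 was higher and 4 lower, beside 5.93% to 7.41% and 6.45% to 7.47% of all genes measured. Ndrg1, a stress-induced gene, was 6.71-fold lower (41.3 against 277), Epas1, the transcription factor HIF-2 alpha, 4.84-fold lower (107 against 517), Vegfa, an endothelial growth factor, 4.34-fold lower (481 against 2088) and P4ha1, a collagen prolyl hydroxylase, 3.27-fold lower (80.9 against 265). Car9, a carbonic anhydrase, was 2.25-fold lower and Arnt, the partner of the hypoxia-inducible factors, 2.22-fold lower. Glycolytic and other targets were within 2-fold, among them Pgk1 (3520.1 and 3404), Ldha (4604 and 3459.5) and Bnip3 (937 and 1001). Adm, at 1.42-fold lower, was likewise within 2-fold.

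Over the 7 lists, 69 of 84 pathway genes with a probe set were measured, 3 were higher and 17 lower, beside 1.91% and 18.5% of all genes measured. Their median log2 ratio was -0.41, against -0.40 for all genes measured. Of these 20 genes 12 were past 2-fold in the same direction under all 4 other scalings, and 0 changed sign. Ece1, Crhr1, Gcgr, Adcy1, Pde8a, Sik1, Arnt and Car9 fell within 2-fold under at least 1 of them. Of the 12, Prkar1b came to a log2 ratio of 0.54 as the median over its probe sets. Without probe sets ending in _x_at or _s_at it was at -0.08, and Gper1 at -0.75, both within 2-fold.

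**Figure D4:**
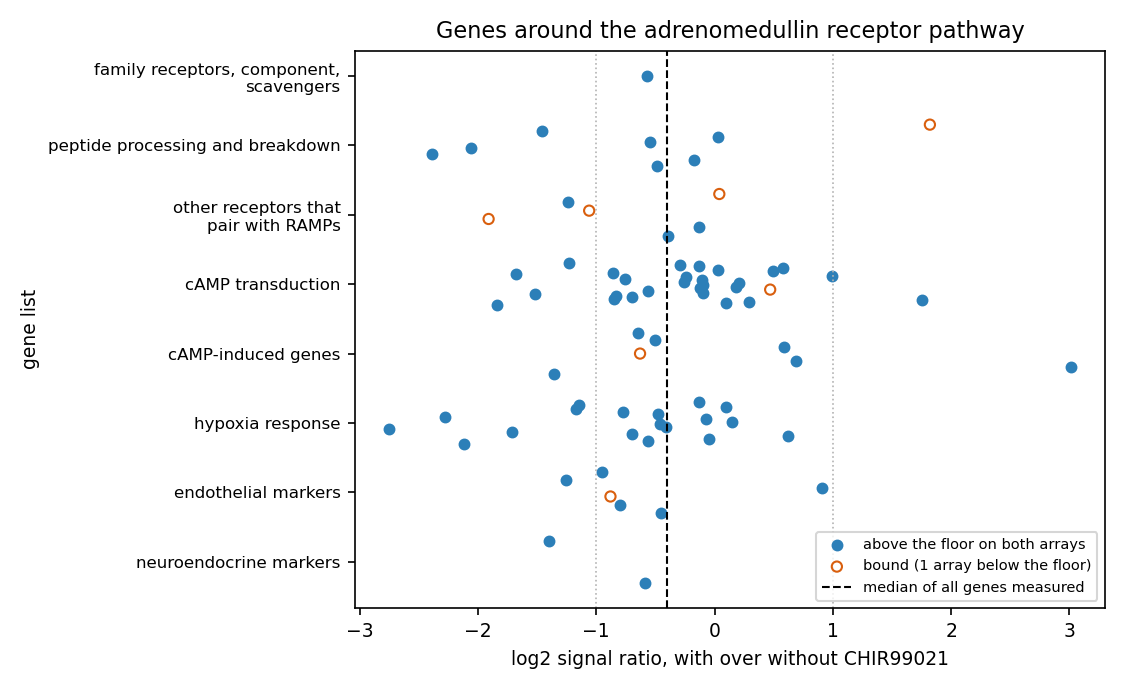
Log2 signal ratio, with over without CHIR99021, of measured genes in 6 pathway lists and in the endothelial and neuroendocrine marker lists, with filled points for genes above the floor on both arrays and open points for bounds; genes whose bound gives no direction are left out. Dotted lines mark 2-fold and the dashed line the median of all genes measured at -0.40; Ppargc1a at 3.01 is the highest point.

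Because Calcrl and the RAMPs are best known from vessels, endothelial markers were read on the same arrays. Of 16 markers 7 were measured, where 12962 of all 18193 genes were. On the authors' scale 0 were higher and 1 lower, beside 1.91% and 18.5% of all genes measured. Under the 4 other scalings 1 was higher and 0 or 1 lower, beside 2.65% to 7.41% and 6.45% to 14.1%. The gene lower on the authors' scale was Egfl7, a secreted vascular factor, by 2.40-fold (42.1 against 101). Its other measured probe sets disagreed, with log2 ratios of 0.23 and -0.15 and a bound of -0.67, and it was at 0.23 when probe sets ending in _x_at or _s_at were dropped. Above the floor with CHIR99021 were 6 of the 16: Esam, an endothelial adhesion molecule, with 75.2 without and 141 with it, Egfl7, the VEGF receptors Kdr (32.0 and 23.5) and Flt4 (27.7 without), Cldn5, a tight junction protein (39.0 and 20.2), and Sox17, a transcription factor (8.06 and 18.1). The defining markers Pecam1 (2.26 without and 3.45 with CHIR99021), Cdh5 (16.8 and 8.83), Tek (6.87 and 3.82) and Tie1 (0.692 and 0.362) were below the floor on both arrays. The summed signal of all 16 was 363 without and 312 with CHIR99021. Endothelial markers were thus in part above and in part below the floor, and the part of endothelial cells in the signal of Calcrl was not tested. Of 11 neuroendocrine markers with a probe set 2 were measured, with 1 lower, beside the same 18.5% of all genes measured. Ddc, an aromatic amino acid decarboxylase, was 2.63-fold lower (412 against 1085) and Uchl1 was within 2-fold (42.8 and 28.4). Ddc came within 2-fold after median centring or quantile normalization. Chga, Syp and Grp were below the floor. The summed signal of the list was 1194 without and 488 with CHIR99021, of which Ddc alone made up 1085 and 412. All 10 epithelial markers were measured, among them Epcam with 3846 and 3743 and Cdh1 with 6414 and 3574. In this list 1 was higher and 3 lower, beside 1.91% and 18.5% of all genes measured. Sox9, the tip factor, was 11.0-fold higher, and Krt8 and Krt18, keratins of simple epithelia, were 2.45-fold and 2.38-fold lower. Nkx2-1 was at least 4.09-fold lower by a dim probe set, at 52.0 without and 5.84 with CHIR99021, the latter under the floor. Within 2-fold were Sftpc (8808 and 8500), and Foxa1 and Foxa2, with log2 ratios of -0.50 and -0.49. In such bulk samples fewer cells of a type and less RNA per cell cannot be told apart.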

How the data were processed

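Biotinylated cRNA from 100 ng of total RNA was hybridized to Affymetrix 3′ expression arrays, per the labels' protocols. The deposited intensity values are linear MAS5 signals, 1 per probe set. The submitters' processing notes name MAS5 without a version, and the scaling target and detection calls are not given in the sources used here. MAS5 subtracts mismatch signal, so dim values scatter widely. Probe sets were named from the platform annotation, with Entrez identifiers looked up in a RefSeq table of GRCm38.p6: of 34945 single-gene probe sets 34741 matched, and 0 symbols changed. A further 932 probe sets name several genes and 9160 none, and these were not used.

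Computed here, with pandas 2.3.3, numpy 2.4.6 and statsmodels 0.14.6 under Python 3.11.15, were the floor, log2 ratios, counts from 2-fold on, and medians. A gene was represented by its brightest probe set (mean log2 signal after the floor), and counted as measured when above the floor on at least 1 array. A bound that gives no direction enters as 0. The procedure was tested on simulated data with changes placed only on probe sets far above the floor, so calls near the floor were not tested. With 1 array per condition, the number of arrays limits the precision. The members and lists were chosen with earlier results of these data known. Named are all member probe sets, in each list every gene past 2-fold or else the gene with the largest ratio, and the 2 genes nearest to each member above the floor on both arrays; other genes were named after their values were seen. The alternatives, 12 in all, were 4 scalings, 3 floors, an offset of 16 before the log, thresholds of 1.5-fold and 3-fold, the median over probe sets, and dropping probe sets that end in _x_at or _s_at.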

Additional observations from a re-analysis of the deposited data

How the results depend on the processing

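No paired analysis was possible because each condition has 1 array, and no array could be left out. Under all 12 alternatives 2 member genes, Ramp1 and Calcrl, were higher and 0 lower. Without a floor 4 in place of 2 member probe sets were higher, since 1416077_at of Adm and 1431413_at of Ramp1, neither of them above the floor on both arrays, then counted. With the floor at the 50th percentile 3 were higher. The member probe sets that counted as measured were 10 without a floor and 9 with that floor, in place of 5. Shares over all probe sets were not computed for these floors. By gene, 6.67% of all genes measured were higher without a floor and 2.94% with the floor at the 50th percentile. The pathway genes, 3 higher and 17 lower on the authors' scale, came to 8 and 10 after median centring, 10 and 9 after quantile normalization and again 10 and 9 after loess. The shares of all genes measured, 1.91% and 18.5% on the authors' scale, were 5.93% and 7.47%, 7.41% and 6.45%, and 6.05% and 7.31%. The higher count of the pathway genes was 7 without a floor and 7 at 1.5-fold, beside 6.67% and 5.08% of all genes measured. The lower count was 26 at 1.5-fold and 9 at 3-fold, beside 38.8% and 6.31%. Outside these lists Egfl7, Ddc, Foxf1, Lyz2, Krt8 and Krt18 came within 2-fold under at least 1 of the 4 scalings, with no change of sign there. Adm had no measured probe set when those ending in _x_at or _s_at were dropped. Signals near the floor limit what can be read for Adm, Ramp2 and Ramp3.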

Other observations

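Markers of mesenchymal, leukocyte, mesothelial and neuronal cells were read on the same arrays. Of all 18193 genes 12962 were measured, and of these 1.91% were higher and 18.5% lower on the authors' scale. After median centring, quantile normalization or loess these shares were 5.93% to 7.41% and 6.45% to 7.47%. Of 12 mesenchymal markers 8 were measured, 0 higher and 1 lower, Foxf1, a transcription factor of lung mesenchyme, at least 2.02-fold (25.7 without CHIR99021). Its other probe set had 18.0 and 14.9, with no direction, and with the floor at the 50th percentile the log2 ratio of Foxf1 was -0.27. After median centring, quantile normalization or loess 1 mesenchymal marker was higher and 0 lower. Pdgfrb, Tbx4, Fgf10 and Lum were below the floor, and the summed signal of the list was 507 without and 413 with CHIR99021. Of 6 leukocyte markers 3 were measured and 1 was lower, Lyz2, lysozyme, by 2.14-fold (35.0 against 74.9), while Ptprc, the pan-leukocyte marker, was below the floor. The list's summed signal was 186 and 125. Of 4 mesothelial markers 2 were measured, and Msln, mesothelin, which lung epithelium can also express, was at least 37.0-fold lower (471 without), with Wt1 and Upk3b below the floor. That list's summed signal was 482 and 22.7, with 471 of the former from Msln alone. Of 6 neuron markers with a probe set 4 were measured, and 0 were called higher or lower on the authors' scale. With the floor at the 50th percentile 2 were lower, beside 23.2% of all genes measured, and after quantile normalization 1 was higher. Prph, an intermediate filament of peripheral neurons, had signals of 25.4 and 6.99, the latter under the floor, a bound just short of the threshold, and the summed signal was 95.2 and 66.5.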
